A study of Gallus gallus with 2 samples.

Results

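Nonneural ectoderm-1 was 1 of 16 cell classes that the authors named in dissociated whole chicken embryos of the gastrula stage HH5 (Hamburger-Hamilton series). Its members were taken as every cell that the deposited table calls nonneural ectoderm-1, which gave 413 of 7750 cells, or 5.33% (95% interval 4.84 to 5.85%). Each cell had been profiled by 10x Multiome for its RNA and, by ATAC, for its accessible chromatin. There was 1 preparation, with 1 RNA and 1 ATAC library, and the labels give no treatment, genotype or replicate. For each cell the table holds a pair of coordinates of an embedding, a class name and, for 6681 cells, an ATAC rank. The embedding is a plane on which cells with similar RNA and ATAC profiles lie close together, and both libraries are labelled with the antero-posterior axis. No barcode occurred more than once.

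Ectoderm at this stage is being divided into the neural plate, which forms the central nervous system, and the nonneural ectoderm around it, which forms epidermis. The zone where they meet, the neural plate border, later gives rise to neural crest and placodes, the sources of peripheral neurons, pigment cells and sense organs. DLX5, TFAP2A and GATA2 encode transcription factors used as markers of nonneural ectoderm and its border with the neural plate. Levels of these genes were not analysed here, so the class name is the authors' and was not checked against its markers. The sources used here give neither the quantity that was ranked nor which end of the rank is anterior. Ranks are therefore called only low or high. Cells of 1 preparation are not replicates, and differences between groups of cells were not tested.

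All 413 nonneural ectoderm-1 cells carried a rank. They made up 16.6% of the 2481 ectoderm cells (15.2 to 18.2%) and 40.4% of the 1022 cells in the nonneural classes (37.4 to 43.5%). The ranks ran from 150 to 5817, and 89.3% of the cells lay below the middle rank of all ranked cells, 3341. This share was higher in the other ectoderm classes, at 94.9% in nonneural ectoderm-2, 94.3% in neural ectoderm-2 and 99.4% in neural ectoderm-1. The SD of the rank was 987 in nonneural ectoderm-1, against 795 in nonneural ectoderm-2, 821 in neural ectoderm-2 and 629 in neural ectoderm-1.

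In the embedding, nonneural ectoderm-1 cells lay mostly in 2 places, on opposite sides of nonneural ectoderm-2. One was a thin strip between neural ectoderm-2 and the primitive streak, where epiblast cells ingress along the midline. The other was a compact group at the far edge of nonneural ectoderm-2. Between first coordinates of 0 and 1 there were only 11 nonneural ectoderm-1 cells, or 2.66% of the class. The same range held 375 nonneural ectoderm-2 cells, or 61.6% of that class, counted at second coordinates below -2.5. All 11 nonneural ectoderm-1 cells also lay below that limit. The strip had a median first coordinate of -1.41 and a median second coordinate of -3.02, and the compact group had medians of 2.09 and -5.21.

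These places were not fully separate. Linking each cell to its 15 nearest cells of the same class left 1 connected set of 413 cells. With links kept only where each cell was among the 15 nearest of the other, 408 cells still formed 1 set. The longest link that would split the class into parts of 10 or more cells measured 0.621 embedding units, against a median link of 0.0621. It joined a cell at a first coordinate of 0.362 to one at 0.872, and cutting it left 139 and 274 cells. The class is therefore described below in 2 areas divided at a first coordinate of 0, a smaller area of 137 cells (33.2% of the class, 28.6 to 37.9%) and a larger area of 276 cells (66.8%). A Gaussian mixture of 2 components put 406 of the 413 cells on the same side, and the longest link put 411 there.

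**Figure D1:**
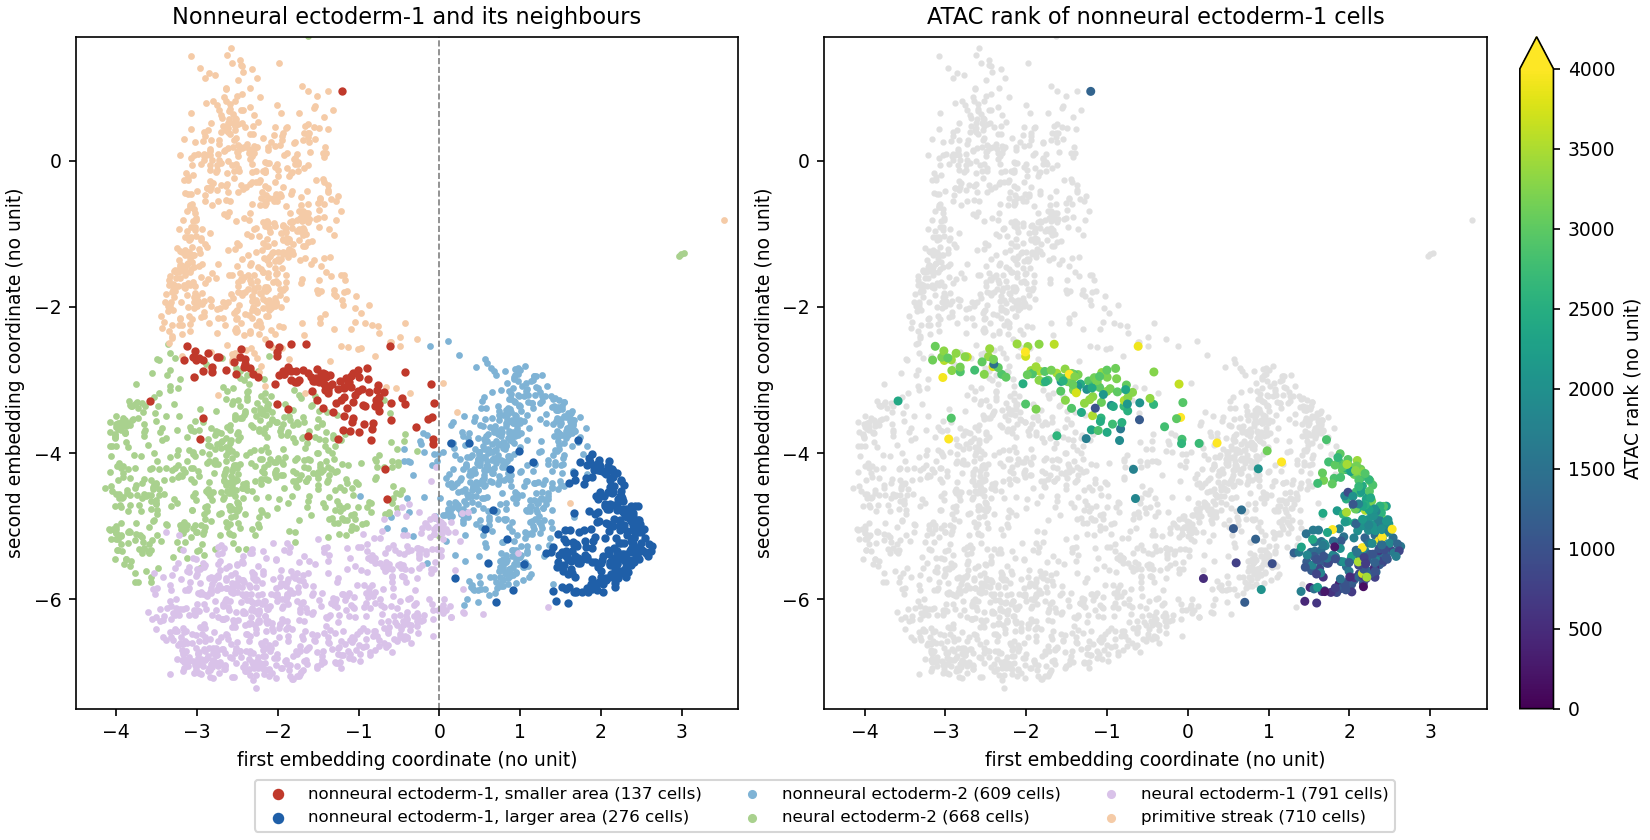
Each point is 1 cell, placed by the first (horizontal) and second (vertical) embedding coordinate. The left panel shows the 137 and 276 nonneural ectoderm-1 cells of the smaller and larger areas among 4 neighbouring classes, with the division at 0 dashed. The right panel colours the same 413 cells by ATAC rank on a linear scale (10 cells above 4000 share the top colour) with the other classes in grey. For the other classes, 10 of 2778 cells lie outside the drawn range. Low ranks sit at the bottom of the larger area, and ranks near 3000 fill both its top and the smaller area.

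The smaller area had high ranks for ectoderm and a narrow spread. Its median rank was 3041 (quartiles 2621 and 3307, 95% interval of the median 2940 to 3169). The larger area had a median of 1784 (quartiles 1142.75 and 2472, interval 1579 to 1919). A smaller-area cell ranked above a larger-area cell in 84.1% of pairs, where 50% means no difference in level. The quartile ranges of the areas did not overlap, but single cells did. Of the larger-area cells, 63 (22.8%) ranked at or above the lower quartile of the smaller area, and they sat at a median second coordinate of -4.33, near the top of the larger area.

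As a whole the class ranked close to the other nonneural class and to neural ectoderm-2, while its areas lay on opposite sides of them. Nonneural ectoderm-1 ranked above nonneural ectoderm-2 in 55.1% of pairs and above neural ectoderm-2 in 54.8%. Smaller-area cells ranked above nonneural ectoderm-2 cells in 82.6% of pairs and above neural ectoderm-2 cells in 80.98%. Larger-area cells did so in 41.5% and 41.8% of pairs, below the even value of 50%. Against neural ectoderm-1, the lowest-ranked ectoderm class, both areas were higher, in 97.6% of pairs for the smaller area and 82.9% for the larger. Against the primitive streak both were lower, with the ectoderm cell above in 6.62% and 1.94% of pairs.

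The rank was divided into 10 bins of nearly equal cell number, from the lowest ranks up, and the fullest bin differed between the areas. Bin 5 held 73 of the 137 smaller-area cells, or 53.3% (44.6 to 61.9%), and bins 4 to 6 together held 89.8% of them. The larger area was spread more broadly. Its fullest bin was bin 2 with 76 cells, or 27.5% (22.4 to 33.2%), but bin 3 held 25.4% (20.3 to 30.9%) and bin 5 still 15.9%. Of its cells, 78.6% fell in the lowest 4 bins. None of the 137 smaller-area cells fell in bin 1 (a count of 0 allows up to 2.19%, or 2.66% by the exact interval), against 18 larger-area cells, or 6.52%. Bin 10 held 0 of the 413 cells, so that a share of up to 0.726%, or 0.889% by the exact interval, remains possible. By comparison, nonneural ectoderm-2 and neural ectoderm-2 peaked in bin 4 with 34.6% and 27.5% of their cells, and neural ectoderm-1 in bin 1 with 44.5%. Bin 10 held 0 cells of each of these classes as well.

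**Figure D2:**
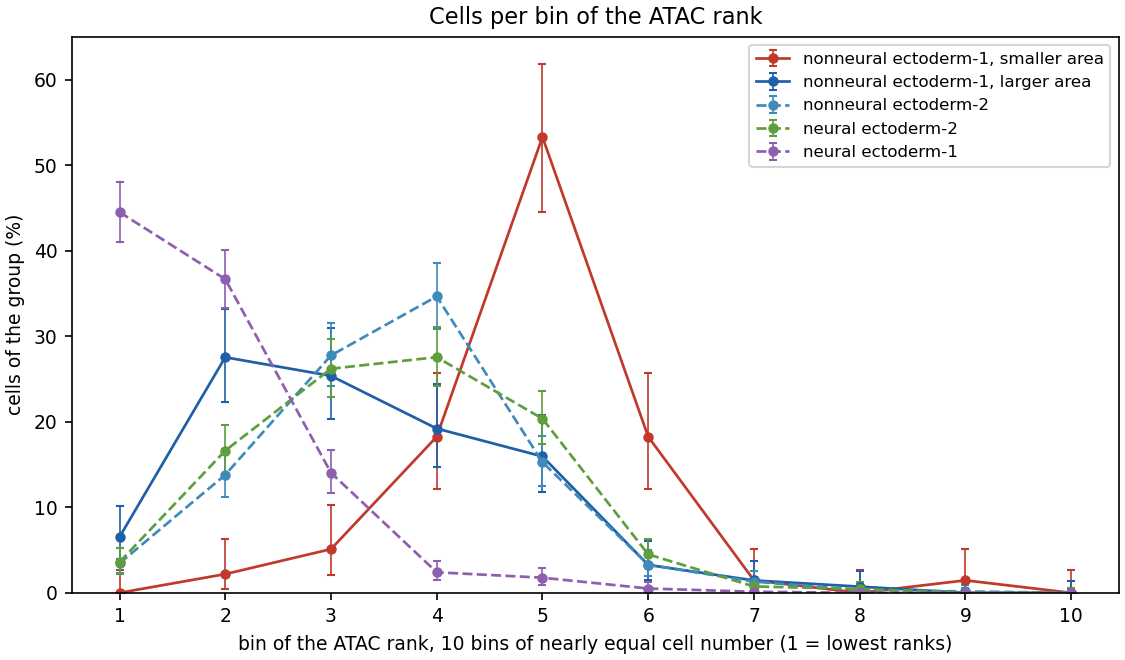
The share of each group's cells (vertical axis, %) is shown for 10 bins of the ATAC rank (horizontal axis, 1 is the lowest), with bars for exact 95% binomial intervals that cover counting error only. Solid lines are the smaller (137 cells) and larger (276 cells) areas of nonneural ectoderm-1 and dashed lines the other ectoderm classes. The smaller area peaks in bin 5 at 53.3% and the larger in bin 2 at 27.5%.

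Within the larger area the rank was graded along the second coordinate. Spearman's rho across its 276 cells was 0.77 with the second coordinate and 0.04 with the first. A plane over both coordinates captured 52.4% of the rank variance there and rose by 1250 ranks per embedding unit, almost exactly along the second coordinate. The relation to the second coordinate was not particular to this area. Spearman's rho with it was also 0.75 in nonneural ectoderm-2, 0.78 in neural ectoderm-2 and 0.76 in the primitive streak, but 0.33 in neural ectoderm-1. In 5 strips of 55 or 56 cells along that direction, the median ranks from bottom to top were 1007.5, 1246, 1628, 2166 and 2896. The quartile ranges of the top strip (2706.5 to 3101.5) and of the one below it (1966.5 to 2434) were disjoint. The correlations are across cells that share 1 preparation. The embedding itself draws on the ATAC profiles, so coordinate and rank cannot be taken as independent measurements.

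Within the smaller area the rank changed less. Spearman's rho across its 137 cells was 0.49 with the second coordinate and -0.29 with the first. With all 137 cells, a plane rose by 199 ranks per unit, mostly against the first coordinate, and captured 5.43% of the rank variance. That direction rested on 1 cell that lay apart at a second coordinate of 0.952. Without it the plane rose by 851 ranks per unit, almost along the second coordinate, and captured 20.3%. In 5 strips of the remaining 136 cells along that direction, the median ranks from bottom to top were 2570.5, 2963, 2993, 3169 and 3319. The top strip of the larger area, with its median of 2896, lay within this range.

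Division into areas alone captured 28.1% of the rank variance in the class, and 71.9% lay within areas. A separate plane in each area captured 58.7%, against 51.4% for 1 plane over the class. Separate planes include the single plane as a special case, so their share could not be the lower one. Both fits kept the smaller-area cell that lay apart. Cells also had ranks like those of their nearest neighbours, more closely in the larger area. A cell's rank and the median over its 15 nearest cells in the same area had a Spearman's rho of 0.39 in the smaller area and 0.76 in the larger. Those with the second coordinate alone were 0.49 and 0.77. Because the embedding draws on the ATAC profiles, likeness of rank between near cells may be partly built in, which was not tested. The spread of the rank was also narrower in the smaller area (SD 666) than in the larger (SD 911), and this was not adjusted for.

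At equal second coordinates, the upper part of the larger area ranked above nonneural ectoderm-2 and neural ectoderm-2. The first coordinate was not matched, and its median over all cells was 2.09 in the larger area and 0.84 in nonneural ectoderm-2. Spearman's rho of the rank with the first coordinate was 0.29 in nonneural ectoderm-2. How far this bears on the differences below was not tested. In the band from -4.5 to -4, the median rank of the 44 larger-area cells was 2960 (quartiles 2785.75 to 3120), against 2100.5 (1825 and 2296.75) in 134 nonneural ectoderm-2 cells and 2044 (1744.5 and 2346) in 182 neural ectoderm-2 cells. The larger-area cell was the higher one in 93.4% and 90.3% of pairs, and neither quartile range of the other classes reached that of the larger area. From -5 to -4.5 the medians were 2213.5 in the larger area, 1677.5 in nonneural ectoderm-2 and 1520 in neural ectoderm-2. The difference from nonneural ectoderm-2 was smaller further down, at 138 from -5.5 to -5, and was -125 from -6 to -5.5, where the larger-area median was 1017.

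The smaller area did not stand above its neighbours in this way. From -3.5 to -3 its 54 cells had a median rank of 2946.5, against 2674 in nonneural ectoderm-2 and 2990 in neural ectoderm-2. From -3 to -2.5 the medians were 3214 in the smaller area, 3263 in nonneural ectoderm-2 and 3345 in neural ectoderm-2, each of the last 2 from 21 cells. Pair percentages in these bands lay between 38.6% and 58.4%. High ranks in the smaller area thus came with second coordinates at which neural ectoderm-2 and nonneural ectoderm-2 cells ranked about as high, within the spread of cells.

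**Figure D3:**
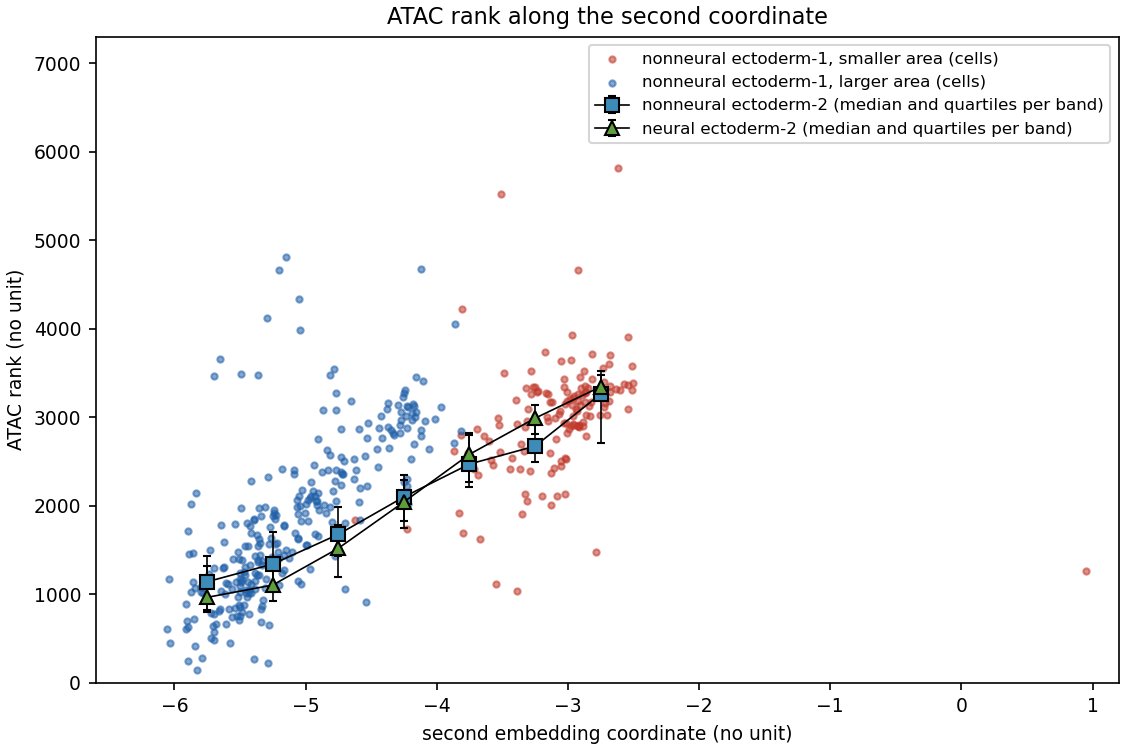
ATAC rank (vertical axis) is plotted against the second embedding coordinate (horizontal axis) for each nonneural ectoderm-1 cell of the smaller (red) and larger (blue) area. Squares and triangles give medians with quartiles of nonneural ectoderm-2 and neural ectoderm-2 per band of 0.5 units. Larger-area cells from -4.5 to -4 have a median of 2960 and lie above both other classes, whereas smaller-area cells scatter around them.

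The areas had different borders. A border cell is one with at least 1 of its 15 nearest cells in the neighbouring class. In the smaller area, 91 of 137 cells (66.4%) bordered neural ectoderm-2 and 65 (47.4%) bordered the primitive streak, while 8 bordered nonneural ectoderm-2. In the larger area, 60 of 276 cells (21.7%) bordered nonneural ectoderm-2, 3 bordered the streak and none bordered neural ectoderm-2 (a count of 0 allows up to 1.09%). Neural ectoderm-1 was bordered by 6 cells of the whole class, too few for a comparison of ranks at 15 nearest cells. With 50 nearest cells, 18 larger-area cells bordered it, with a median rank of 1143 (quartiles 610 and 1450.25), against 1834.5 (1173 and 2548.75) in the other 258. Position on the second coordinate was not matched, and all larger-area cells from -6 to -5.5 had a median rank of 1017.

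In the embedding, the smaller area was also the more mixed with other classes. Of the 15 nearest cells, 67.5% on average were of the same class in the smaller area and 92.0% in the larger. With 50 nearest cells these shares were 58.9% and 90.0%. Such shares depend on the number of cells in an area and on its shape, which were not adjusted for. In the smaller area 26 cells (19.0%) had only cells of their own class among the 15, against 214 cells (77.5%) in the larger. Neural ectoderm-2 supplied 16.7% of the nearest cells in the smaller area and the streak 11.2%. Nonneural ectoderm-2 supplied 7.49% of those in the larger area. The median distance from a smaller-area cell was 0.169 to the nearest neural ectoderm-2 cell, 0.229 to the nearest streak cell and 1.26 to the nearest nonneural ectoderm-2 cell. From a larger-area cell it was 0.40 to the nearest nonneural ectoderm-2 cell, 0.82 to the nearest streak cell, 1.19 to the nearest neural ectoderm-1 cell and 2.18 to the nearest neural ectoderm-2 cell. For 273 of the 276 larger-area cells, the nearest streak cell was the same 1 cell, which lay apart from most of the streak at coordinates of 1.62 and -4.68.

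Along the border with neural ectoderm-2, ranks within the smaller area were lower than away from it. The 91 border cells had a median of 2963 (quartiles 2537 and 3283), against 3173.5 (2942.75 and 3344.5) in the other 46 cells of the area. Over the whole class the direction was the opposite, with border cells 984.5 ranks above the median of the rest, because all 91 border cells lay in the smaller area. Within the area the quartile ranges overlapped. Set against the neural ectoderm-2 cells beside them, border cells differed in rank by a median of -221 (quartiles -548.25 to 63.5), and 28 of 91 ranked above them. The interval of this median was -352 to -102. The size of the difference depended on how a border was defined. It was -144.5 (interval -350 to 95) with 5 nearest cells and -81.75 (-324 to 37) with at least 3 of 15. With 50 nearest cells it was -105.75 (-166 to -20), over 136 border cells of the whole class. The intervals treat border cells as independent, although nearby cells can share the same neighbours.

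Along the border with the primitive streak, ranks within the smaller area were higher. The 65 border cells had a median of 3189 (quartiles 2953 and 3360), against 2899.5 (2443.5 and 3185.25) in the other 72 cells. Position on the second coordinate was not matched here or along the neural ectoderm-2 border. Rank rose with that coordinate in this area (Spearman's rho 0.49). With 50 nearest cells the difference between these medians was 663 in place of 289.5, from 112 border cells and 25 others. Set against the streak cells beside them, they differed by a median of -74.5 (quartiles -408 to 194). The interval of this median was -232.5 to 17. The value was -210 (interval -364 to 113) with 5 and -249 (-375 to -165) with 50 nearest cells. These intervals too treat border cells as independent, although nearby cells can share the same streak cells. Cells of the smaller area that bordered neural ectoderm-2 but not the streak (44 cells) had a median of 2612 (quartiles 2408.25 and 2956.25). Those that bordered both classes (47 cells) had a median of 3170 (2947 and 3346), those that bordered only the streak (18 cells) 3231.5, and those that bordered neither (28 cells) 3136. The lower ranks at the neural border were thus those of cells with no streak border, and these sat lower on the second coordinate, at a median of -3.41 against -2.87 for cells that bordered both.

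The same borders were read from the other side. The median rank of the 146 neural ectoderm-2 cells that bordered nonneural ectoderm-1 was 2802.5 (quartiles 2166.25 to 3142.25), against 1888 (1337 and 2462.5) in the other 522 cells, and all of them met the smaller area. The 63 streak cells that bordered the class had a median of 3475 (3141.5 and 3965.5), against 4844 (3904.5 and 5818.5) in the other 647 streak cells. So the neural ectoderm-2 cells at this border were high for their class, and the streak cells there were low for theirs. In both classes the rank also rose with the second coordinate (Spearman's rho 0.78 and 0.76), and position was not matched. Over all neural ectoderm-2 cells the median rank was 2582 from -4 to -3.5 and 2990 from -3.5 to -3. How far position bears on these differences was not tested.

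Along the border with nonneural ectoderm-2, the 60 larger-area cells were at a median of 2022 (quartiles 1304 to 2800.75), against 1692 (1116.5 and 2367.25) in the other 216. They ranked above the nonneural ectoderm-2 cells beside them by a median of 279.25 (quartiles -170.75 and 665), in 37 of 60 cells. Over the whole class the difference between border cells and the rest was -147, because the cells away from this border included the smaller area. Conversely, the 137 nonneural ectoderm-2 cells that bordered the larger area had a median of 1684 (1321 and 2382), against 2171.5 (1645.75 and 2612.25) in the other 472. The 20 that bordered the smaller area had a median of 2627.5 (2165.25 and 2860). All these quartile ranges overlapped, and position on the second coordinate was not matched here either.

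**Figure D4:**
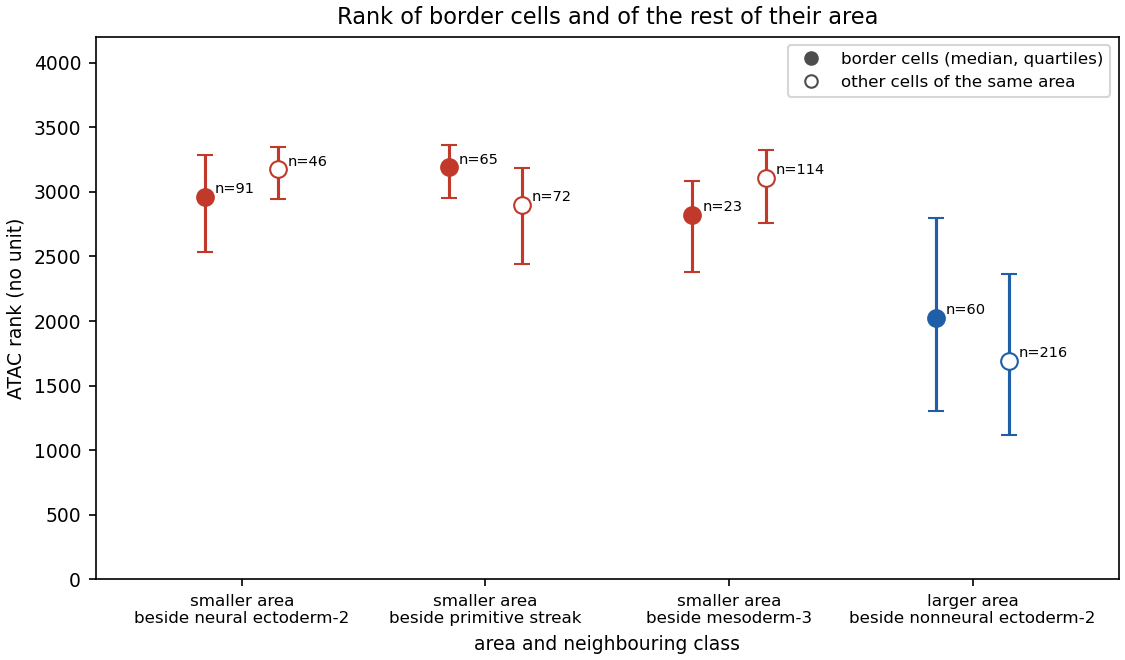
Median ATAC rank (vertical axis, bars are quartiles over cells) of border cells (filled) and of the other cells of the same area (open), for each border of at least 10 cells (horizontal axis), with the number of cells beside each point. Red is the smaller and blue the larger area of nonneural ectoderm-1. Border cells are higher beside the primitive streak (3189 against 2899.5) and lower beside neural ectoderm-2 (2963 against 3173.5), with overlapping quartiles.

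A few nonneural ectoderm-1 cells lay beside or among other classes or far from the ranks around them. In the smaller area 23 cells bordered mesoderm-3, with a median rank of 2818 (quartiles 2378.5 and 3082), against 3109 (2762 and 3325) in the other 114 cells. Only 5 of the 23 had at least 3 mesoderm-3 cells among the 15 nearest. With 5 nearest cells, 10 cells bordered mesoderm-3, at a median of 2958 against 3073. Their mean was then the higher one, at 3123.5 against 2968.51. Of all 413 cells, 17 (4.12%) had no cell of their own class among the 15 nearest. The commonest class around them was nonneural ectoderm-2 for 11 cells, neural ectoderm-2 for 5 and mesoderm-6 for 1. Those 17 cells had a median rank of 1835, and 6 ranked above the median of their surroundings. The highest rank, 5817, belonged to a cell with 6 of its 15 nearest cells in its own class. No class was commoner than the streak among these 15. Of the next 4, 2 cells of rank 4811 and 4667 lay inside the larger area with all 15 nearest cells of their own class.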

How the data were processed

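Per the file headers, each cell in the deposited table has 2 weighted nearest neighbour UMAP coordinates, a cluster name and an ATAC rank. The coordinates and the rank are unitless scores made by the authors. The ranks were checked to be whole numbers to 6681, each used once; the 1069 cells of 3 extraembryonic classes had none. The submitters' processing notes name the build galGal6, Signac 1.8.0, Seurat 4.3.0 and Cell Ranger ARC 2.0.0. Settings, cell filters and doublet treatment were not given in the sources used here. Depth per cell is unknown. No doublet caller was run, and no gene value was used.

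Class members, the division into areas and the borders were chosen with earlier results of these data known, and the bands, bridging cells and comparisons within areas after further values had been seen. The planned rule for areas (connected sets of cells) gave 1 area, so the division at 0, a listed alternative, was used. The rule for names covered ectoderm classes and any class supplying at least 1% of nearest cells. Mesoderm-3 and mesoderm-6 were added later. Pairs with the notochord, endoderm and mesoderm-5 were also planned. Nonneural ectoderm-1 ranked above endoderm in 80.7% of pairs and above mesoderm-5 in 42.8%.

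Nearest cells were found by Euclidean distance in the embedding, which is not distance in the embryo. Intervals are exact (Clopper-Pearson) for shares and from binomial order statistics for medians, at 95%. Limits for counts of 0 are 3 counts of the total, which is lower than the upper end of the exact interval. All cover counting error only and treat cells as independent. Border cells can share neighbours, so the intervals of differences from cells beside them may be too narrow. No test was run, because cells of 1 preparation are not replicates. Functions were tested on simulated data. Alternatives were means, Pearson correlations, 5 or 50 nearest cells, 3 border cells, other divisions, and leaving out mixed, bridging or distant cells. Scripts ran on scikit-learn 1.9.0, SciPy 1.17.1, pandas 2.3.3 and Python 3.11.15.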

Additional observations from a re-analysis of the deposited data

How the results depend on the processing

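Of 96 alternative values, 71 were rated the same as the reported value. The limit was the interval of that value where it had one, 0.1 for correlations and 1.5 times for counts. Pair percentages had no interval. Both area medians stayed within their intervals under every alternative tried for them. The alternative medians were 3029.5 to 3070.5 in the smaller area and 1779 to 1802 in the larger. The means over cells were 2979.82 and 1869.75. The number of areas was 1 with 5, 15 or 50 nearest cells and with mutual links, and 2 by construction with the division at 0 or the Gaussian mixture. Spearman's rho with the first coordinate was -0.46 over the class. In the smaller area it was -0.29 by the division, -0.32 by the mixture, -0.35 without bridging cells (first coordinates from -0.5 to 1.5) and -0.29 without the most distant cell. In the larger area it was 0.042, 0.053 and 0.014. The negative value over the class therefore did not hold within the larger area. The Spearman correlation with the second coordinate was 0.78 over the class, and in the smaller area 0.49, 0.51, 0.51 and 0.53 under the same 4 settings. The share of nearest cells in the same class was 83.9% with 15 nearest cells and 79.7% with 50. Cells bordering neural ectoderm-2 ranked above the rest of the class by 984.5, by 1255 with 50 nearest cells and by 768.5 with at least 3 border cells, but the difference was -210.5 within the smaller area. For nonneural ectoderm-2 it was -147, but 246.5 with at least 3 border cells and 330 within the larger area. For the streak it was 1165, and within the smaller area 289.5, or 663 with 50 nearest cells. Smaller-area border cells differed from the neural ectoderm-2 cells beside them by -221, or -81.75 with at least 3 border cells, and from the streak cells beside them by -74.5, or -249 with 50 nearest cells. Which of these differences was the larger depended on the number of nearest cells. From -4.5 to -4 the larger area exceeded nonneural ectoderm-2 by 859.5, and by 762.5 with the band moved to -4.75 to -4.25. Without cells that had fewer than 8 of 15 nearest cells in their class, nonneural ectoderm-1 ranked above the notochord in 47.2% of pairs, against 50.5% with them. Apart from the change of neighbours or cells that each setting makes, the cause was not tested. Both libraries come from 1 set of cells and form no contrast between samples, so no paired comparison of conditions was possible. Depth per cell is unknown, so its relation to the rank was not tested.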
